A study of Mus musculus with 2 samples.

Results

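The genes described here encode the leukaemia inhibitory factor (LIF) pathway: the ligand Lif, the receptor chains Lifr and Il6st, the kinases Jak1, Jak2 and Tyk2, the transcription factor Stat3, and the feedback genes Socs1 and Socs3. They were chosen by symbol, and all 9 had a row among the 43629 genes of each count table. The samples were 2 polyadenylated RNA libraries, replicates A and B, of mouse embryonic stem (ES) cells of 129/Ola background, labelled as from the blastocyst, at passage 7. Both libraries came from cells with a Dgcr8 knockout made by paired CRISPR/Cas9, so no sample without the knockout was analysed here. Dgcr8 encodes the RNA-binding subunit of the Microprocessor, which releases microRNA precursors from their primary transcripts. Whether A and B are separate cultures, or cells of 1 clone, is not given in the labels, and the codes KO2 and d5 in the titles are not explained. The culture medium is not given in the sources used here.

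LIF keeps mouse ES cells in self-renewal. It binds the receptor chain LIFR, which pairs with gp130, the product of Il6st, and kinases of the JAK family bound to both chains phosphorylate tyrosines on them. STAT3 docks there, is phosphorylated in turn, and moves to the nucleus, where it activates genes such as Socs3, whose protein binds gp130 and the JAKs and shuts the signal down. The same receptor also feeds the ERK and PI3K pathways.

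Replicate A held 27872396 counts in total and replicate B 30327146. The 9 genes took 17681 and 23852 of these, or 0.0634% and 0.0786%. Dgcr8 itself held 1253 and 1942 counts, and since counts per gene do not show which exons were read, this does not check the genotype. All 8 ES cell markers reached 1 CPM (1 count per 1000000 of the library total) in A and in B, the lowest of them, Fgf4, at a mean of 245 CPM. Markers of other cells were summed by list. Fibroblast markers gave 47.9 CPM in A and 30.2 in B, from Thy1 at 31.4 and 21.9 CPM down to Lum at 0 in both. Of these 8 markers, 4 reached 1 CPM in both libraries. Blood markers gave 26.8 and 31.1 CPM, from Cd68 at 14.8 and 23.7 CPM down to Hbb-bs at 0 in both, with Ptprc at 1 and 5 counts. Of these 6 markers, 3 reached 1 CPM in both. The 9 primitive endoderm markers gave 81.1 CPM in A and 236 in B, of which 5 reached 1 CPM in both. In bulk RNA, fewer cells of a type and less RNA per cell cannot be told apart.

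All 9 genes were above 1 CPM in both libraries, against 13372 of all 43629 genes, with means between 2.80 CPM for Socs1 and 168 CPM for Lifr. The median over the 9 genes was 75.3 CPM, beside 26.7 CPM over those 13372 genes. A value with ± gives the mean of A and B with their SD (n = 2). Limits in brackets are exact 95% Poisson limits, which cover counting error only. For comparing different genes, RPKM divides the CPM by the length of the longest annotated transcript in kilobases. Percentiles place a gene's mean RPKM among the same 13372 genes, whose median was 8.64 RPKM where a length was known.

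The ligand was transcribed at a low level. Lif (ENSMUSG00000034394, GRCm38 chromosome 11, 4257557 to 4272514, plus strand) had 191 counts in A and 143 in B. This was 6.85 CPM in A (5.92 to 7.90) and 4.72 in B (3.97 to 5.55), or 5.78 ± 1.51 CPM. A was the higher library and the limits did not overlap. Per length Lif lay at 1.44 ± 0.375 RPKM, at percentile 13.2.

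Both receptor chains were well above the median gene and close to each other per length. Lifr (ENSMUSG00000054263, chromosome 15, 7090614 to 7197489, plus strand), the chain that binds LIF, had 3622 counts in A and 6264 in B. This corresponds to 129.9 CPM in A (126 to 134) and 207 in B (201 to 212), or 168 ± 54.2 CPM. Il6st (ENSMUSG00000021756, chromosome 13, 112464070 to 112510086, plus strand), which encodes the shared chain gp130, held 3034 and 4807 counts. That gave 109 CPM in A (105 to 113) and 159 in B (154 to 163), or 134 ± 35.1 CPM. In both genes B was the higher library, with no overlap of the limits. Per length they reached 17.4 ± 5.61 RPKM (percentile 67.7) and 15.4 ± 4.05 RPKM (percentile 64.5).

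The promoter sequence of the receptor chains is shown because the transcripts of both genes were of low GC content, 44.4% for Lifr and 47.4% for Il6st, and this property comes back in the comparison of the libraries. Sequences are from RefSeq on GRCm38.p6, 5′ to 3′ along the gene's strand, from 250 bases before the RefSeq start to the base before the first GENCODE exon within the window. Capitals mark GGGCGG, the core of a GC box, and CCAAT, on either strand. The Lifr stretch is chr15:7129322-7129558 and belongs to the 5′-most of 2 RefSeq windows of this gene, whose start lies 38958 bases inside the GENCODE gene. The principal Lifr transcript in GENCODE starts 24781 bases downstream of that RefSeq start, so the bases just before it are not shown. The Il6st stretch is chr13:112463820-112464069, and both stretches are on the plus strand.
Lifr: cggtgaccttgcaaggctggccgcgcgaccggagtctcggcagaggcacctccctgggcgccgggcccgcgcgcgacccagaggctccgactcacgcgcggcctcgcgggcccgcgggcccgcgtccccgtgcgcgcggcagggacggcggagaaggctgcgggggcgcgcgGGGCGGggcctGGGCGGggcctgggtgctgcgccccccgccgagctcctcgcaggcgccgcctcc
Il6st: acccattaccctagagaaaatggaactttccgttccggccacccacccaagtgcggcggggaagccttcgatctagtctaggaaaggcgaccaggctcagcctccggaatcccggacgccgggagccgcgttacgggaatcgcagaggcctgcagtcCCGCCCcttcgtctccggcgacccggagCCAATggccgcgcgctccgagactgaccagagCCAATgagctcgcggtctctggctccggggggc
The Lifr stretch held GGGCGG 2 times and no CCAAT, and the Il6st stretch held GGGCGG 1 time and CCAAT 2 times. The full windows of 300 bases were 81.3% and 68.3% GC, against a median of 52.7% over 32851 RefSeq windows. GGGCGG occurred in a window of 8 of the 9 genes, all but Lif, and in 35.7% of all windows. All 10 windows of the 9 genes lay above the median GC content of all windows, and no background of like GC content was computed. CCAAT occurred in a window of 6 of the 9 and in 37.4% of all windows. A match is a description of these letters, not a bound site.

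Of the kinases, Jak1 was the highest and Jak2 the lowest. Jak1 (ENSMUSG00000028530, chromosome 4, 101152367 to 101265282, minus strand), a main kinase of gp130 receptors, held 1877 counts in A and 2525 in B. It lay at 67.3 CPM in A (64.3 to 70.5) and 83.3 in B (80.0 to 86.6), or 75.3 ± 11.3 CPM, and the limits did not overlap. Tyk2 (ENSMUSG00000032175, chromosome 9, 21104068 to 21131243, minus strand), best known from interferon and interleukin receptors, held 1008 and 1155 counts, or 37.1 ± 1.36 CPM. Jak2 (ENSMUSG00000024789, chromosome 19, 29251828 to 29313080, plus strand), which also serves erythropoietin and growth hormone receptors, held 234 and 275 counts, or 8.73 ± 0.475 CPM. For both Tyk2 (34.0 to 38.5 in A, 35.9 to 40.3 in B) and Jak2 (7.35 to 9.54 in A, 8.03 to 10.2 in B) the limits of the libraries overlapped. The share of all genes with overlapping limits was not computed, so no count of such genes is read here. The binomial test given below is another measure. By that test 76.8% of all genes differed between the libraries, Tyk2 among them. Per length the kinases stood at 15.3 ± 2.29 RPKM for Jak1, 7.69 ± 0.281 for Tyk2 and 1.74 ± 0.0945 for Jak2, at percentiles 64.4, 46.9 and 15.7.

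Stat3 (ENSMUSG00000004040, chromosome 11, 100885098 to 100939540, minus strand) was at a level like that of the receptor chains. It held 2728 counts in A and 4196 in B, or 97.9 CPM (94.2 to 102) and 138 CPM (134 to 143), with a mean of 118 ± 28.6. B was higher, without overlap of the limits. Stat3 reached 19.5 ± 4.74 RPKM, at percentile 70.2. Exons of Stat3 share 72 bases with Stat5a on the opposite strand, a gene with 153 and 182 counts. Exons of Tyk2 share 554 bases with the opposite-strand gene 1700084C06Rik, which had 1 count in each library. Jak1 shares 4 bases with Raver2. Whether strand was used in counting is not given in the sources used here, so such shared bases are uncertain.

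The feedback genes were the highest and the lowest of the 9 per length. Socs3 (ENSMUSG00000053113, chromosome 11, 117966079 to 117970047, minus strand), the inhibitor that acts on gp130, held 4887 counts in A and 4426 in B. It lay at 175 CPM in A (170 to 180) and 146 in B (142 to 150), or 161 ± 20.8 CPM. Socs1 (ENSMUSG00000038037, chromosome 16, 10782240 to 10785536, minus strand), which inhibits JAKs and is best known from interferon signalling, held 100 and 61 counts. That was 3.59 CPM in A (2.92 to 4.36) and 2.01 in B (1.54 to 2.58), or 2.80 ± 1.11 CPM. In both genes A was the higher library and the limits did not overlap. Per length Socs3 reached 62.9 ± 8.14 RPKM, at percentile 90.2, and Socs1 0.963 ± 0.383 RPKM, at percentile 8.07.

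The promoters of this pair are shown because STAT dimers bind the palindrome TTCNNNGAA. The pair was picked because its levels per length stood at opposite ends of the 9 genes. Capitals mark that motif, GGGCGG and CCAAT on either strand. The Socs3 stretch is chr11:117969452-117969616 and the Socs1 stretch chr16:10785537-10785786, both on the minus strand.
Socs3: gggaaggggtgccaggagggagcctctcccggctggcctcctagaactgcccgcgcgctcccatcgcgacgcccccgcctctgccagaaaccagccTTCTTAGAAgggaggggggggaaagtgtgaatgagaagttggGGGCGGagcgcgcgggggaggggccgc
Socs1: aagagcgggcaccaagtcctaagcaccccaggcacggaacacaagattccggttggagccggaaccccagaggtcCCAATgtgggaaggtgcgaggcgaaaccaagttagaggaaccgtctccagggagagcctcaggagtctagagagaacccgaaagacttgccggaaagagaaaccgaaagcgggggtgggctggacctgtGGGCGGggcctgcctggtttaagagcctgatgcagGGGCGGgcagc
Socs3 held the 1 match to TTCNNNGAA among the windows of the 9 genes, TTCTTAGAA, at bases -154 to -146 from the RefSeq start. That motif occurred in 8.30% of the 32851 windows, and 1 of the 10 windows of the 9 genes is near that share. Whether the motif bears on the level of either gene was not tested. The RefSeq start of Socs3 lies 681 bases inside the GENCODE gene, and the stretch shown falls in an intron of a noncoding transcript. The principal coding transcript in GENCODE starts 180 bases downstream of the RefSeq start, so the bases just before it are not in this window. The Socs1 stretch held GGGCGG 2 times, CCAAT 1 time and no TTCNNNGAA. Of 10 known LIF and STAT3 target genes 8 had a RefSeq window, and none of these windows held TTCNNNGAA. These windows are short, and no match says nothing about binding elsewhere.

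**Figure D1:**
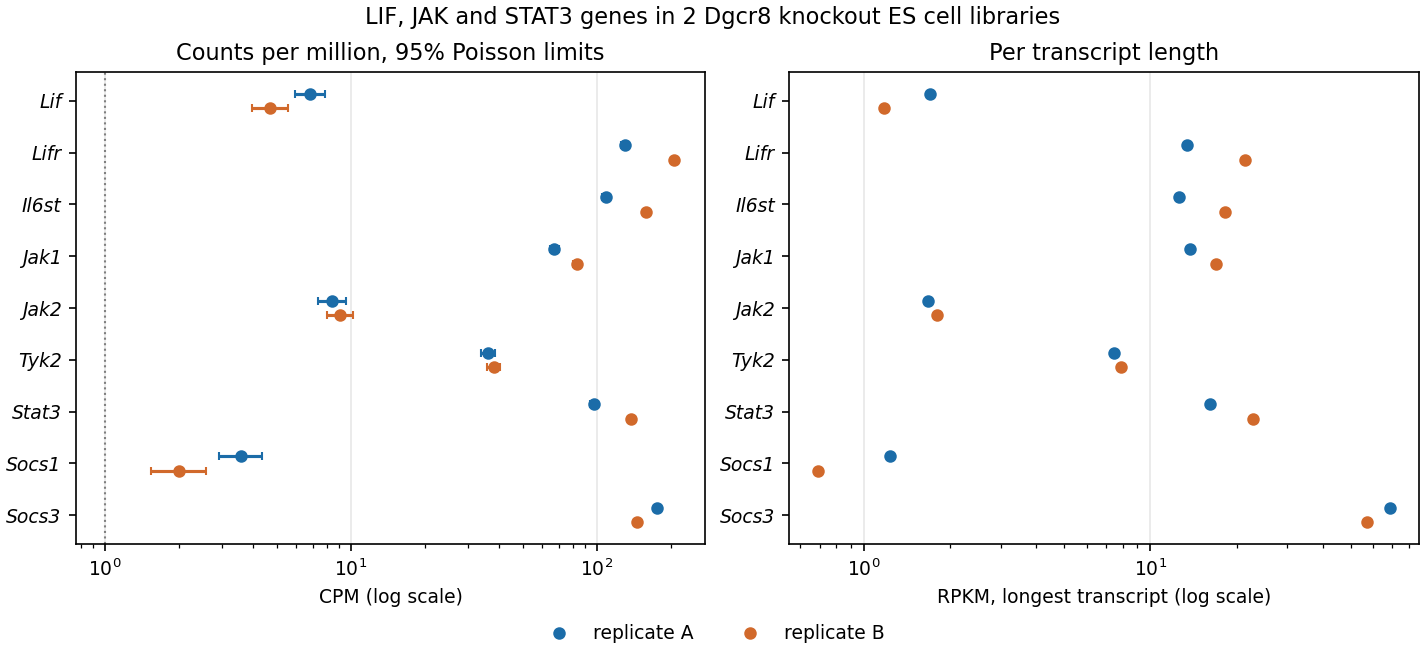
Level of each gene in replicate A (blue) and replicate B (orange), on log scales: left, CPM with 95% Poisson limits and 1 CPM as a dotted line; right, RPKM by the longest transcript. Socs3 lay highest per length, at 68.7 RPKM in A and 57.2 in B, and Socs1 lowest, at 1.23 and 0.692.

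Ordered by mean RPKM, the genes ran Socs3, Stat3, Lifr, Il6st, Jak1, Tyk2, Jak2, Lif and Socs1. Socs3 stood apart, since its lower library (57.2 RPKM) was above the higher library of Stat3 (22.9). Stat3, Lifr, Il6st and Jak1 formed a group in which each gene's range over the libraries overlapped that of the next, from 12.5 to 22.9 RPKM. Tyk2 (7.49 and 7.89 RPKM) lay under that group and above the others without overlap. Jak2 (1.67 and 1.80), Lif (1.70 and 1.17) and Socs1 (1.23 and 0.692) overlapped in turn, so their order is not separated by the spread of these libraries.

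Ratios between genes within a library do not depend on the library total, so they were compared for 9 pairs. Intervals here are exact binomial limits of the 2 counts. Lifr exceeded Il6st 1.07-fold per length in A (1.02 to 1.13) and 1.17-fold in B (1.13 to 1.22). Jak1 exceeded Jak2 8.22-fold in A (7.18 to 9.46) and 9.41-fold in B (8.31 to 10.7), and exceeded Tyk2 1.83-fold (1.70 to 1.98) and 2.15-fold (2.01 to 2.31). Tyk2 exceeded Jak2 4.49-fold (3.89 to 5.20) and 4.38-fold (3.83 to 5.01).

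The other pairs ranged from near equality to the widest gap of all. Stat3 exceeded Lifr 1.20-fold in A (1.14 to 1.27) and 1.07-fold in B (1.03 to 1.11), an order that turned when all annotated exons set the length (0.852 and 0.758). Socs3 exceeded Stat3 4.24-fold in A (4.05 to 4.45) and 2.50-fold in B (2.39 to 2.61). The gap within the feedback pair was the widest of the 9 pairs, with Socs3 55.7-fold above Socs1 in A (45.7 to 68.6) and 82.7-fold in B (64.2 to 108). Lifr exceeded its ligand gene Lif 7.91-fold in A (6.84 to 9.19) and 18.3-fold in B (15.5 to 21.7).

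The ratio of the counts differed between A and B for 7 of the 9 pairs (Fisher's exact test, two-sided, adjusted over the pairs). The test compares these libraries, not conditions. The largest shift was that of Lif over Lifr, 2.31-fold higher in A (exact adjusted p = 3.8e-13), and Socs3 over Stat3 was 1.70-fold higher in A (exact adjusted p = 1.6e-60). The ratios of Jak1 over Jak2 (exact adjusted p = 0.18) and of Jak2 over Tyk2 (exact adjusted p = 0.81) did not pass the threshold. When each log2 ratio of B over A was set against genes of like GC content and transcript length, the shift of Socs3 over Stat3 went from -0.76 to -0.01 on the log2 scale and that of Lif over Lifr from -1.21 to -0.52. The shifts of Jak1 over Tyk2 and of Stat3 over Lifr, both called, changed sign, and that of Jak2 over Tyk2 went from 0.04 to -0.86. As measured, only Lif over Lifr shifted by more than 0.785 on the log2 scale, which is the square root of 2 times the SD of the log2 ratios of the 8907 genes that passed 10 CPM in A and B.

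The replicates were then compared gene by gene, against counting error only. Library sizes were scaled by TMM and each gene's counts were set against the expected share by an exact binomial test, adjusted over 14583 genes. Of the 9 genes 8 differed between the libraries, beside 76.8% of all genes tested, so the share of the 9 was close to that of all genes. Of them 5 were higher in B (38.4% of all genes) and 3 higher in A (38.4% of all genes). At least 1.5-fold apart were 4 of the 9, beside 37.9% of all genes. The median absolute log2 ratio was 0.41 for the 9 genes and 0.44 for all genes tested. Log2 ratios are of TMM-scaled CPM + 0.5, which understates those of low genes, and folds are of TMM-scaled counts.

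Receptor chains and Stat3 were higher in B. Lifr was 1.70-fold higher in B (1.63 to 1.77, exact binomial test, adjusted p = 8.8e-145), Il6st 1.55-fold (1.48 to 1.63, adjusted p = 3.2e-81) and Stat3 1.51-fold (1.44 to 1.58, adjusted p = 6.9e-63). Jak1 was 1.32-fold higher in B (1.24 to 1.401, exact adjusted p = 2.8e-19) and Tyk2 1.12-fold (1.03 to 1.22, exact adjusted p = 0.010). Without TMM, Tyk2 no longer differed (exact adjusted p = 0.27). Jak2 did not pass the threshold, at 1.15-fold in B (0.964 to 1.38, exact adjusted p = 0.15).

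Ligand and feedback genes were higher in A. Socs1 was 1.67-fold higher in A (1.20 to 2.34, exact binomial test, adjusted p = 0.0024), Lif 1.36-fold (1.09 to 1.70, adjusted p = 0.0075) and Socs3 1.13-fold (1.08 to 1.17, adjusted p = 2.1e-08). Set beside all genes tested, the absolute log2 ratio of Lifr was at percentile 74.8, Il6st at 66.1, Socs1 at 65.4 and Stat3 at 62.5. Those of Socs3 and Tyk2 were at 21.2 and 20.5. When the spread between the 2 libraries was taken as replicate error (edgeR's exact test with the common dispersion, a coefficient of variation of 0.359), 0 of the 9 genes were called and 0 had an unadjusted p under 0.05. Of all 14583 genes 25 were called by that test. Its dispersion was estimated from these same 2 libraries, so a gene with a ratio of usual size could hardly be called. The result therefore does not show that the 9 genes were alike in A and B.

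GC content moved with these ratios. Over all genes tested, the median log2 ratio of B over A went from 0.53 in the lowest decile of GC content to -0.57 in the highest. The 4 genes of the pathway under 50% GC (Lifr, Il6st, Jak1 and Jak2) all had ratios towards B, the last without passing the test. Of the 5 over 50%, Stat3 (52.5%) and Tyk2 (57.0%) were higher in B, and Lif (53.0%), Socs3 (58.7%) and Socs1 (58.8%) were higher in A.

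**Figure D2:**
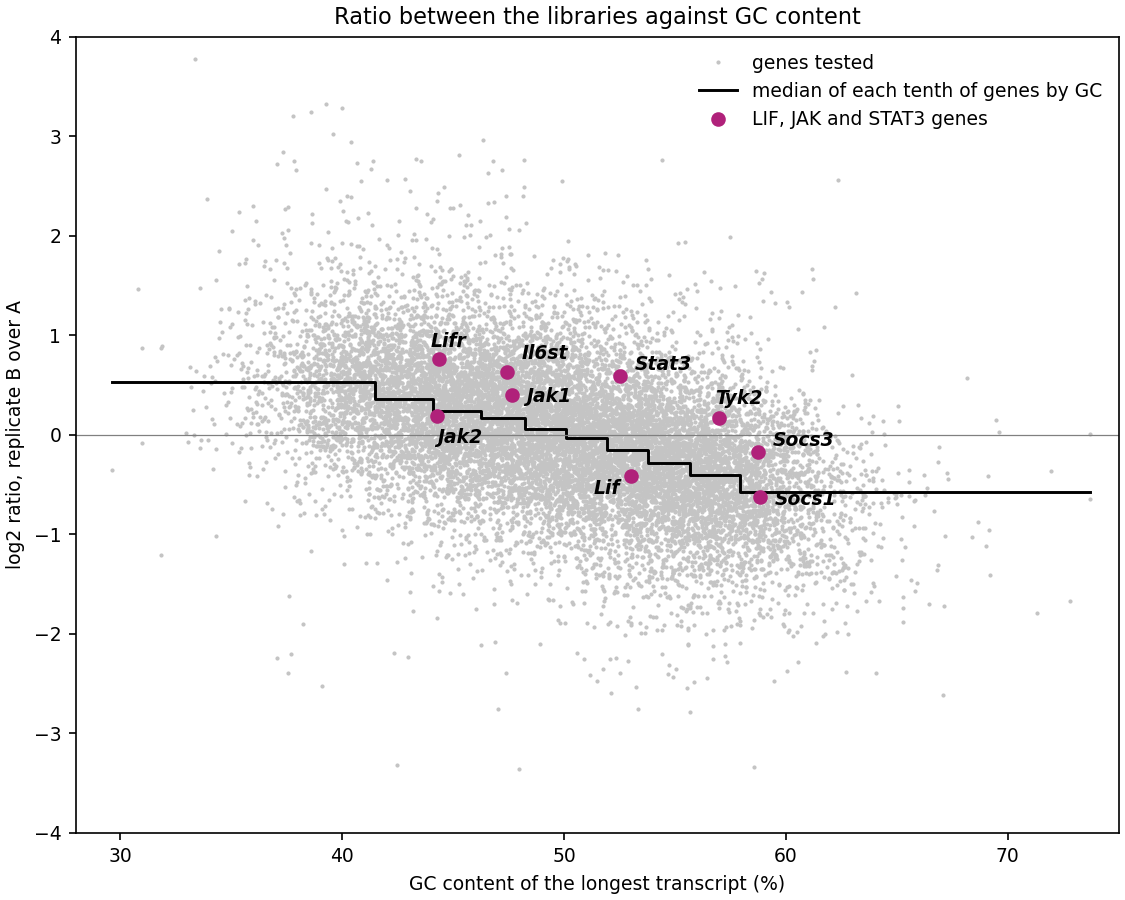
Log2 ratio of replicate B over A against the GC content of the longest transcript, with genes tested as grey points, the median of each decile of GC content as a black line and the 9 pathway genes in purple. Lifr, at 44.4% GC, had the highest ratio of the 9 (0.76) and Socs1, at 58.8%, the lowest (-0.62).

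Each ratio was then set against the median of genes of like GC content and transcript length. Lifr went from 0.76 to 0.18 on the log2 scale, Il6st from 0.63 to 0.13 and Jak1 from 0.40 to 0.10, all still called. Socs1 went from -0.62 to -0.10 and was no longer called (exact binomial test, adjusted p = 0.44). Stat3 kept most of its ratio, at 0.44 in place of 0.59, and Lif stood at -0.33 in place of -0.41. Tyk2 rose from 0.17 to 0.48. For 2 genes the direction turned: Socs3 from -0.17 to 0.43 (exact adjusted p = 2.0e-45) and Jak2 from 0.19 to -0.38 (exact adjusted p = 0.0070). After centring, 8 of the 9 genes were called, 6 towards B and 2 towards A, in place of 5 and 3. Of all 14509 genes tested after centring, 10251 were called, 5221 towards B and 5030 towards A.

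**Figure D3:**
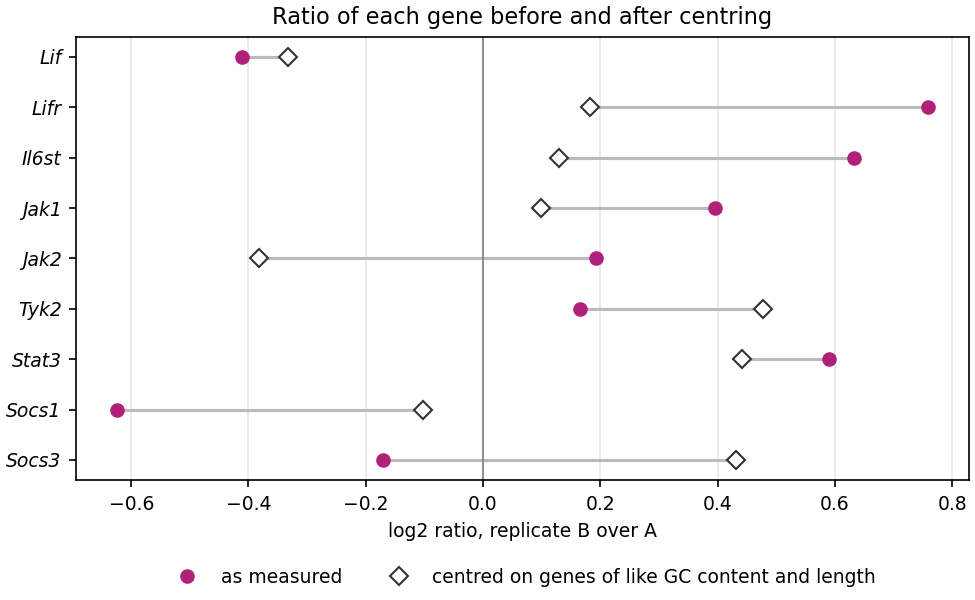
Log2 ratio of replicate B over A of each gene as measured (filled circles) and after subtracting the median ratio of genes of like GC content and length (open diamonds). Of the 9 genes 6 moved nearer to 0, and Socs3 and Jak2 crossed it.

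The summed level of the 9 primitive endoderm markers was also higher in B (236 CPM against 81.1 in A). Most of it came from Lama1 (47.3 CPM in A, 142 in B) and Col4a1 (21.1 and 56.7). Of the 7 tested, 6 were called higher in B, beside 38.4% of all genes. The other, Gata4, was called higher in A, at 7.10 CPM in A and 4.91 in B, and was not called after centring. Of the 6 called higher in B, Gata6 and Sox7 reached 1 CPM in B only. They thus entered the test through the library in which they were higher. None of the 9 was at 0 in both libraries, and 2, Sox17 and Foxa2, were under 1 CPM in both. The ES cell markers summed to 9483 CPM in A and 6234 in B, with 2 of the 8 called towards B and 6 towards A, beside 38.4% of all genes in each direction. Of these 8 only Dppa5a, at 4252 CPM in A and 1767 in B, was at least 1.5-fold apart. The part of either shift in the ratios of the 9 pathway genes was not tested.

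Each gene was placed within its family by its share of the family's summed RPKM. Among 8 ligands of the IL-6 family, to which LIF belongs, Lif made up 29.9% in A and 26.7% in B, below the cardiotrophin gene Ctf1 with 36.9% and 34.4%. The whole family summed to 5.68 RPKM in A and 4.39 in B. Of 8 other ligand genes listed, 2 reached 1 CPM in both libraries, Ctf1 at 2.44 ± 0.559 CPM and Osm at 2.58 ± 0.154 CPM, neither of which differed between the libraries by the test. Il6 had 0 counts in both, and 3 counts, taken as the limit that a count of 0 allows, equal 0.108 CPM for A and 0.0989 for B, and Il11 had 12 and 10 counts.

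Among 7 receptor chains of this family, Lifr held 30.9% and 36.01% of the summed RPKM and Il6st 28.8% and 30.7%. Next came Cntfr, the chain for ciliary neurotrophic factor that joins Lifr and Il6st, with 25.1% in A and 27.7% in B, or 13.7 ± 3.91 RPKM. Of the 6 other chains listed, 5 reached 1 CPM in both libraries, with Il11ra1, the chain for interleukin 11, at 3.43 ± 2.08 RPKM and Il27ra, the chain for interleukin 27, at 1.23 ± 0.389 RPKM. Osmr, the chain for oncostatin M, had 1 and 19 counts. Of the 5 tested, Cntfr was 1.61-fold higher in B, Il11ra1 2.34-fold and Il27ra 1.48-fold higher in A, and 2 did not pass. After centring Il27ra was not called either (exact adjusted p = 0.32).

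In the JAK family, Jak1 held 39.0% of the summed RPKM in A and 47.7% in B. Jak3, which serves receptors with the common gamma chain, came second with 35.0% and 25.1%, or 10.6 ± 2.397 RPKM. Tyk2 followed with 21.3% and 22.2%, and Jak2 with 4.74% and 5.07%. Jak3 was 1.29-fold higher in A (exact binomial test, adjusted p = 4.1e-10), opposite to Jak1, but after centring on GC content and length its log2 ratio was 0.02 and it was not called (exact adjusted p = 0.85). Il2rg, the gene of the common gamma chain itself, lay at 3.29 ± 0.153 RPKM.

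In the STAT family, Stat3 and Stat6, the factor of interleukin 4 signalling, took the largest shares. Stat3 held 32.7% in A and 41.6% in B, and Stat6 37.7% and 37.4%, or 19.7 ± 1.37 RPKM, so which was first depended on the library. It also depended on the length used, since the mean of Stat3 was 26.2 RPKM by the principal transcript and 12.4 by all annotated exons, against 19.7 and 16.9 for Stat6. Stat2, a factor of interferon signalling, held 11.9% and 7.73%, and the other 4 genes 2.09% to 5.20% each. All 7 other JAK and STAT genes listed reached 1 CPM in both libraries. Of these, 4 were called, 1 towards B and 3 towards A, beside 76.8% of all genes. After centring on GC content and length, 5 were called, 2 towards B and 3 towards A, beside 10251 of all 14509 genes.

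In the SOCS family of 8 genes, Socs3 alone held 68.3% of the summed RPKM in A and 57.5% in B. Socs2, an inhibitor of growth hormone signalling that was chosen here after its values were seen, held 14.4% and 21.0%. Socs1 had the lowest share, 1.23% and 0.696%. All 14 other SOCS genes and negative regulators listed passed 1 CPM in A and in B, with Pias2, a SUMO ligase of the PIAS family, at 64.4 ± 8.26 RPKM, the phosphatase gene Ptpn2 at 27.7 ± 0.254 and Pias4 at 20.3 ± 4.81. Of these 14, 9 were called towards B, 4 towards A and 1 in neither direction, beside 38.4% of all genes each way. After centring on GC content and length, 7 were called towards B and 5 towards A, beside 5221 and 5030 of all 14509 genes.

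**Figure D4:**
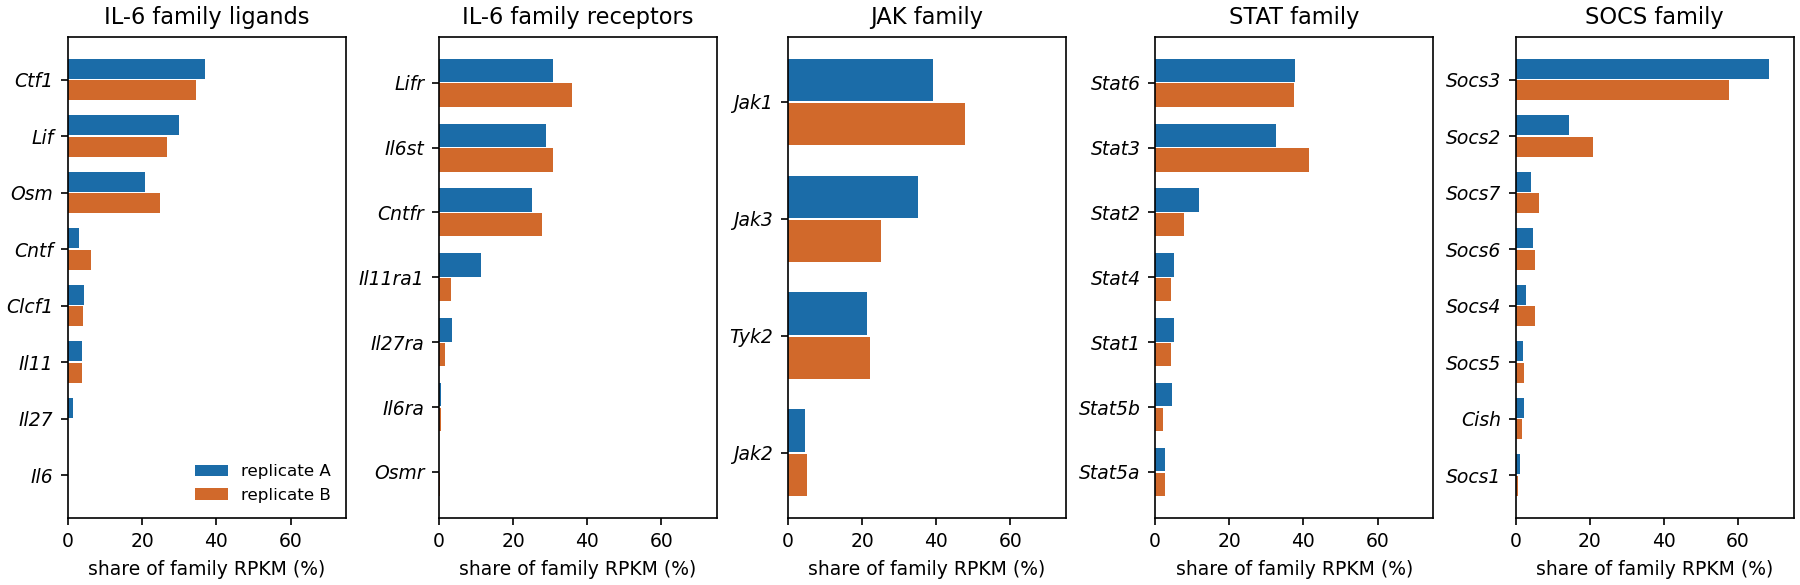
Share of each gene in the summed RPKM of its family, in percent, in replicate A (blue) and B (orange), for the ligands and receptor chains of the IL-6 family and the JAK, STAT and SOCS families. Socs3 held 68.3% and 57.5% of its family, whereas Lifr, Il6st and Cntfr held 25.1% to 36.01% each.

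Other genes of the pathway were measured by lists. All 10 genes of the ERK and PI3K branches passed 1 CPM in A and in B, and their median was 29.6 RPKM beside 8.64 RPKM over all genes that did so. Among the highest were the ERK kinase gene Mapk3 (83.4 ± 24.4 RPKM) and the adaptor gene Gab1 (63.7 ± 27.2). Between the libraries 8 were called towards B and 2 towards A, beside 38.4% of all genes each way. After centring on GC content and length, 6 were called, 4 towards B and 2 towards A, beside 10251 of all 14509 genes. Mapk3 was 1.43-fold higher in A, whereas Gab1 was 1.99-fold higher in B. After centring the log2 ratio of Mapk3 was -0.01 and that of Gab1 1.07.

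All 10 LIF and STAT3 target genes passed 1 CPM in A and in B as well, and their median was 30.03 RPKM. The survival gene Mcl1 reached 137 ± 15.3 RPKM, the kinase gene Pim3 90.4 ± 19.3, and Tfcp2l1, a transcription factor that carries LIF signals in ES cells, 50.03 ± 7.21. All 10 were called between the libraries, 4 towards B and 6 towards A, beside 76.8% of all genes called and 38.4% each way. Tfcp2l1 was 1.31-fold higher in B, and Mcl1 and Pim3 were 1.10-fold and 1.27-fold higher in A. Centring turned the log2 ratio of Tfcp2l1 to -0.12 and that of Pim3 to 0.26, and left Mcl1 at -0.13. Klf4, a naive pluripotency factor, was 1.399-fold higher in A and Klf5, of the same family, 2.30-fold higher in B, with centred log2 ratios of -0.16 and 1.09. Klf4 and Klf5 were chosen here after their values were seen.

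Receptors of other cytokines that signal through JAKs had lower mean RPKM than Lifr and Il6st. Of 14 listed, 9 passed 1 CPM in A and B, and their list had a median of 1.19 RPKM. The interferon receptor gene Ifnar1 was the highest, at 12.4 ± 1.43 RPKM, followed by Il13ra1 at 4.48 ± 2.36 and Il2rg. The leptin receptor gene Lepr was low, with 15 and 30 counts. Of 12 tested, 2 were called towards B and 6 towards A, beside 38.4% of all genes each way. Il10rb, Il4ra and Csf3r, all called towards A, reached 1 CPM in A only. They thus entered the test through the library in which they were higher. After centring, 9 of the 12 were called, 2 towards B and 7 towards A, beside 10251 of all 14509 genes.

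Several of the genes lie beside relatives in the genome. Neighbours were taken as the nearest protein-coding genes, a choice made after the values were seen. Osm lies 16531 bases from Lif, and its range per length (1.18 RPKM in A, 1.09 in B) overlapped that of Lif (1.70 and 1.17). Osmr lies 215645 bases from Lifr and reached 0.00653 and 0.114 RPKM, against 13.5 and 21.4 for Lifr. Il31ra, the gene of an interleukin 31 receptor chain 9812 bases from Il6st, had 0 counts in both libraries. Stat5a and Stat5b, which flank Stat3 on 1 side, lay at 1.45 ± 0.0915 and 1.73 ± 0.816 RPKM, against 19.5 ± 4.74 for Stat3. Stat5b was 1.88-fold higher in A (exact binomial test, adjusted p = 7.0e-12), opposite to Stat3, and Stat5a did not differ by the test (exact adjusted p = 0.20).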

How the data were processed

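Polyadenylated RNA of 2 libraries of 1 group was used. Each deposited file gives raw counts of reads for every Ensembl gene of 1 library, which the authors left unscaled. Per the submitters' processing notes, the tools were featureCounts 1.4.5-p1 and STAR 2.4.2a and the build mm10, with no roles stated. For the annotation, the strand setting and multiply mapped reads, the choice is not given in the sources used here. RNA was extracted with Trizol and libraries made with a TruSeq kit, reverse-stranded, per the labels' protocols.

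Names, positions, transcript lengths and GC content came from GENCODE M21 on GRCm38, the assembly of mm10, and matched 42548 of 43629 identifiers. CPM and RPKM were computed here from library totals and the longest transcript. The replicates were compared by an exact two-sided binomial test with TMM library sizes (edgeR 4.0.16, R 4.3.3, factors 1.03 and 0.968), over the genes that reached 1 CPM in A or B, with Benjamini-Hochberg adjustment across all genes and a threshold of 0.05. With 1 library on each side edgeR's quasi-likelihood test could not be fitted. Pair ratios used Fisher's exact test (scipy 1.17.1). Centring subtracted the median log2 ratio of genes in the same of 10 GC and 5 length classes. Tests were checked on simulated counts drawn with Poisson error only. That check covers the calculation, not the calls made under the wider spread of these libraries. Alternatives were DESeq2 1.42.0 size factors, no TMM, other filters, pseudocounts and lengths. P-values of the binomial and Fisher tests set the difference between these 2 libraries against counting error only. That difference may be technical, and reads that carry no molecular identifier are not independent molecules.

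The genes and lists were chosen with earlier results of these data known. Named genes were Dgcr8, the 9 pathway genes and, of each list, the 3 of highest mean RPKM among those that reached 1 CPM in A and B, and the first 2 under 1 CPM in both. No genes were named for a pattern like that of a pathway gene, since 2 libraries give 1 ratio per gene. Some genes that this rule names are not reported here.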

Additional observations from a re-analysis of the deposited data

How the results depend on the processing

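At a threshold of 10 CPM, 6 of the 9 pathway genes passed in both libraries in place of 9, and 39 of the 69 other listed genes in place of 57. With edgeR's exact test on a common dispersion, 0 of the 9 pathway genes (0 at an unadjusted p under 0.05) and 25 of all genes (846 at an unadjusted p under 0.05) were called, in place of 8 and 11201 by the binomial test. The common dispersion was estimated from these same 2 libraries, so few genes could be called with it. Centring on GC content and length turned the log2 ratio of Jak2 to -0.38 and of Socs3 to 0.43. The test that goes with it, added after seeing the data, called 8 of the 9 pathway genes and 10251 of all 14509 genes. The same centring, also added later, turned the log2 shift of B over A to -0.38 for Jak1 over Tyk2 and 0.26 for Stat3 over Lifr. No other alternative turned the direction of a single gene of the 9. With all annotated exons as length, the log2 ratio per length moved to 0.36 for Lifr over Il6st, 2.58 for Jak1 over Jak2 and -1.64 for Jak2 over Tyk2, and turned to -0.32 for Stat3 over Lifr. With the principal transcript it moved to 0.76 for Stat3 over Jak1 and 0.60 for Stat3 over Lifr. Against the spread of all genes, 1 of 9 pair ratios differed between the libraries in place of 7. No paired analysis was possible because the series has 1 group. Counting error is widest for Socs1, with 61 counts in B.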
